A study of Mus musculus with 8 samples.

Results

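Fgf21 and 9 genes of the integrated stress response were examined in the ipsilateral hemisphere of mice whose middle cerebral artery was permanently occluded (PMCAO) and of sham-operated mice, each given the neuropeptide PACAP38 or saline. The members were Fgf21, Ddit3, Trib3, Atf4, Atf5, Asns, Chac1, Gdf15, Ppp1r15a and Sesn2, and each was taken by every non-control probe whose gene name on the array equals its symbol. That rule found 12 probes of 9 genes, out of 41174 probes with 27962 names. Fgf21, Trib3 and Sesn2 had a pair of probes each. No probe carries the name Ppp1r15a. A probe named Myd116 has a RefSeq accession that belongs to Ppp1r15a, so it is described as Ppp1r15a but kept out of the counts. Fgf21 was selected on its PACAP38-over-saline ratio at 24 h after PMCAO, and that ratio is therefore given as a description.

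The integrated stress response begins when one of a group of stress kinases phosphorylates the translation initiation factor eIF2. General protein synthesis then slows while the mRNA of the transcription factor Atf4 is translated more. Atf4 and its partners switch on genes for amino acid supply, redox balance and, when the stress lasts, cell death. Fgf21 and Gdf15 encode secreted hormones that this response can induce; Fgf21 is best known from liver and Gdf15 as a general signal of tissue stress. Cerebral ischemia is among the conditions known to engage the eIF2 kinases.

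All animals were male C57BL/6J mice of 8 to 12 weeks. PMCAO mice had the artery blocked for good by an intraluminal filament, sham mice had the external carotid artery exposed and the wound closed, and each mouse of either kind received either 1 pmol PACAP38 in 1 µL or 1 µL of 0.9% saline into the cerebral ventricle. Right hemispheres, without olfactory bulb and cerebellum, were taken at 6 or 24 h, so 8 RNA pools of 3 mice each were formed: sham saline, sham PACAP38, PMCAO saline and PMCAO PACAP38 at each time. The 3 mice of a PMCAO pool were chosen for neurological grades 1 and 2, and those of a sham pool at random. Each of 8 two-color arrays carried the PACAP38 and the saline pool of one operation and time; on array 1 of each comparison PACAP38 was in Cy5 and on array 2 in Cy3. The array titles number the pools of a comparison 1 and 2, while the study's methods describe one pooled RNA labeled in both orientations. The methods were followed, so the spread of the 2 arrays is taken as technical and each comparison as 1 biological replicate with no test of its own. In a whole hemisphere of core, penumbra and spared tissue, fewer cells of one type and less RNA per cell cannot be told apart. The 6 h arrays shared one slide and scanner and the 24 h arrays another, so time and slide cannot be told apart.

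One array stood apart. Array 2 of the 6 h sham comparison had 10.7% of its spots marked as outliers by the scanner software, against 0.323 to 3.09% on the other 7 arrays. The levels of one and the same pool on its 2 arrays correlated at 0.925 and 0.930 for the 6 h sham pools and at 0.981 to 0.992 for the other 6. In the 6 h sham pools 43.7% and 54.6% of probes differed more than 2-fold between the 2 arrays, against 4.98 to 13.8% elsewhere. Every 6 h PMCAO-over-sham value of a member is therefore given for array 1 and array 2 apart, and the counts also for array 1 alone. Between 62.1 and 76.0% of spots per channel were well above background.

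The promoters of some members carry the element that Atf4 binds together with a C/EBP factor, and the windows are shown because these genes are commonly read out together as Atf4 targets. RefSeq promoters (GRCm38.p6, 300 bases from 250 before to 50 after each start) were at hand for all 10 genes, 12 windows in all. The motif TGATGNAA, searched on both strands, was found in 4 of the 10 genes, and it occurs in 3.97% of all 32851 promoters. The cAMP response element TGACGTCA, of interest because the PACAP receptors couple to cAMP, was found in 1 of the 10 genes and in 1.79% of all promoters. No 8 bases can match both motifs. Capitals mark the match and each run is read 5′ to 3′ on the gene's strand, where the matches of Fgf21, Chac1 and Trib3 are the motif of the opposite strand.
Fgf21: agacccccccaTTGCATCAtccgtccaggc
Chac1: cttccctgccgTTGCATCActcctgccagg
Asns: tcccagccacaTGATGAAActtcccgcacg
Trib3: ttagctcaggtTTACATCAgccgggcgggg
Ppp1r15a: cgcctctccggTGACGTCAgcacagcgccg
The windows lie at chr7:45615611-45615640 on the minus strand for Fgf21, chr2:119351038-119351067 on the plus strand for Chac1, chr6:7693214-7693243 on the minus strand for Asns, chr2:152344028-152344057 on the minus strand for Trib3 and chr7:45526262-45526291 on the minus strand for Ppp1r15a. Counted from the start site, the matches begin at position -139 in Fgf21, -193 in Chac1, -23 in Asns, 14 in Trib3 and -12 in Ppp1r15a. Fgf21 and Chac1 hold the identical 8 bases. A match is a description of letters and was not tested as a site.

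The Fgf21 probes read different parts of the gene. Probe A_51_P315925 lies at chr7:41790404-41791018 in the array's own coordinates (mm7), a span of 615 bases for a probe of 60, and therefore crosses at least one intron.
Fgf21 A_51_P315925: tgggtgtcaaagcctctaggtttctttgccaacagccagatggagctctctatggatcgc
Probe A_52_P235347 lies at chr7:41790029-41790088, without a gap. The single Gdf15 probe, shown because Gdf15 had the widest PMCAO difference of the clearly detected members, lies at chr8:69084712-69084771.
Gdf15 A_52_P532982: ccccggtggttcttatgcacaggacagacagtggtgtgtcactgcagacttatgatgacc

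Fgf21, a fasting and stress hormone, gave dim readings throughout, and at 24 h the highest were those after PMCAO with PACAP38. On the scanner's processed signal, which is background-subtracted and dye-normalized, probe A_52_P235347 read 76.9 and 66.3 in the PMCAO PACAP38 pool at 24 h on arrays 1 and 2. In the PMCAO saline pool of that time it read 11.7 and 24.0, and in the 2 sham pools between 3.09 and 3.70. Probe A_51_P315925 gave 33.2 and 35.7 in the PMCAO PACAP38 pool at 24 h, 9.57 and 6.00 in the PMCAO saline pool and 3.14 to 3.72 in the sham pools. With both probes the PMCAO PACAP38 pool was the highest of the 4 pools at 24 h on either array, the PMCAO saline pool was next, and the sham pools were lowest and overlapped.

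Most of these readings were near the limit of the assay. Probe A_52_P235347 was well above background in 8 of 16 channels and A_51_P315925 in 4 of 16. At 24 h both probes were well above background in the PMCAO PACAP38 pool on both arrays and in neither sham pool. In the PMCAO saline pool 1 of 2 arrays cleared background by A_52_P235347 and neither did by A_51_P315925.

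At 6 h the arrays of one pool disagreed. Probe A_52_P235347 read 6.17 and 40.3 in sham saline, 19.9 and 60.1 in sham PACAP38, 18.7 and 21.7 in PMCAO saline and 37.4 and 12.0 in PMCAO PACAP38, and of these pools the sham PACAP38 one was well above background on both arrays. Probe A_51_P315925 read between 4.21 and 15.1 in the sham pools and between 11.1 and 17.3 in the PMCAO pools, none of which was well above background on both arrays. The 6 h sham and PMCAO pools thus overlapped with either probe, and the highest A_52_P235347 reading of 6 h came from the array that stood apart. After scaling to the channel's 75th percentile that reading (log2 level -3.12) was above both of the PMCAO PACAP38 pool at 24 h (-3.66 and -3.86).

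**Figure D1:**
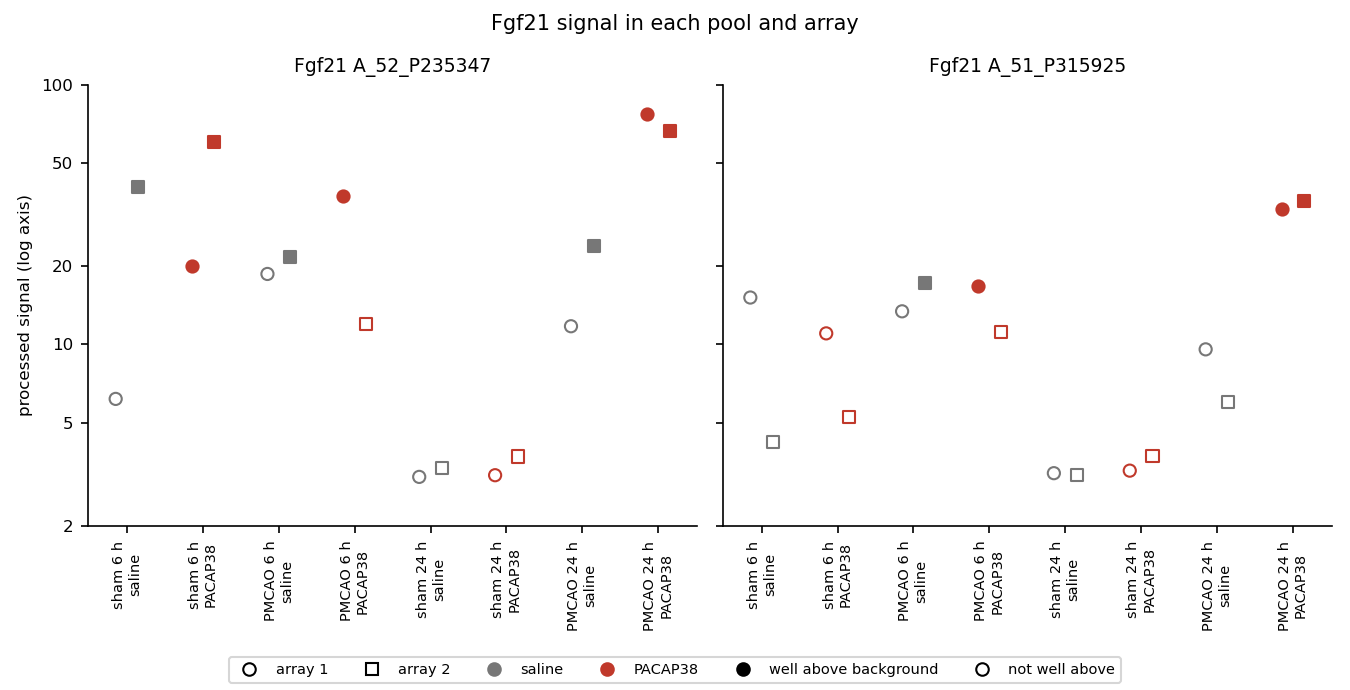
Processed signal of the 2 Fgf21 probes (log axis) in each of 8 pools; circles are array 1, squares array 2, gray saline, red PACAP38, and filled symbols are well above background. At 24 h the PMCAO PACAP38 pool read 76.9 and 66.3 with A_52_P235347 and 33.2 and 35.7 with A_51_P315925, above every other 24 h channel.

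As the log2 ratio of PACAP38 over saline, A_52_P235347 gave 2.71 and 1.46 on arrays 1 and 2 after PMCAO at 24 h, a mean of 2.09 ± 0.88 (SD of the 2 arrays) or 4.25-fold. Probe A_51_P315925 gave 1.79 and 2.57 there, a mean of 2.18 ± 0.55 or 4.55-fold. The values of the probes overlap, and each array put PACAP38 above saline. These are the values on which Fgf21 was selected.

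The size of that ratio depended strongly on how background was handled. After normexp background correction with an offset of 50 and loess, the same arrays gave 0.71 and 0.59 for A_52_P235347 and 0.34 and 0.71 for A_51_P315925. For A_51_P315925, whose saline pool was not well above background on either array, PACAP38 was at least 1.35-fold higher; this bound sets the bright pool's mean against the dim pool's values raised to the lowest signal of any probe well above background, on loess and Aquantile channels.

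The other comparisons gave no direction shared by both probes and both arrays. In sham mice at 24 h, where neither pool was well above background, both probes were listed at exactly 0 on both arrays. After PMCAO at 6 h the 2 arrays had opposite signs with both probes, 1.00 and -0.86 for A_52_P235347 and 0.32 and -0.63 for A_51_P315925. In sham mice at 6 h A_52_P235347 gave 1.69 and 0.58, a mean of 2.20-fold, while A_51_P315925 gave -0.46 and 0.00, so the probes did not share a direction there. The sham saline pool at 6 h had 1 channel of 2 well above background with A_52_P235347 and none with A_51_P315925.

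Set against sham by the same dye, Fgf21 read higher after PMCAO at 24 h with PACAP38 by both probes, while under saline the readings were too dim to give a direction by A_51_P315925. With saline the log2 differences were 1.96 and 2.95 for A_52_P235347 and 1.62 and 1.04 for A_51_P315925. With PACAP38 they were 4.64 and 4.26 for A_52_P235347 and 3.36 and 3.36 for A_51_P315925. Because the sham pools were not well above background, these sizes are bounds: with PACAP38 PMCAO was at least 1.78-fold above sham by A_52_P235347 and at least 1.35-fold by A_51_P315925. With saline the bound was 1.11-fold for A_52_P235347, with 1 of 2 PMCAO arrays well above background, and A_51_P315925 had both pools below background, so that it gives no fold; on loess and Aquantile channels its arrays gave 0.38 and -0.23. The PMCAO PACAP38 pool at 24 h entered the choice of Fgf21, so no test is given. At 6 h the arrays split for A_52_P235347, with 1.64 and -1.58 under saline and 0.96 and -3.01 under PACAP38, both negative values coming from array 2. For A_51_P315925 they were -0.13 and 1.35 under saline and 0.65 and 0.40 under PACAP38. No 6 h direction is given for Fgf21.

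The marker genes of liver and exocrine pancreas, where Fgf21 is best known, were counted as a check on the tissue. Of 5 such genes, Alb, Apoa1 and Prss2 were not well above background on both arrays in any pool, while Cela1 and Ttr, the latter also a choroid plexus marker, were well above it in at least 1 pool. Of the receptors through which Fgf21 signals, the co-receptor Klb was not well above background in any pool either. Fgfr1, a receptor that pairs with Klb, was 0.61 log2 higher after PMCAO than in sham with saline and 0.29 with PACAP38 at 24 h. The other FGF receptors read did not share this. With saline and PACAP38, Fgfr2 was at -0.65 and -0.66, Fgfr3 at 0.19 and 0.42 and Fgfr4 at 0.06 and -0.17. These receptor genes were singled out after their values were seen.

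Among the other members the ratios of PACAP38 over saline past the fold lay in the PMCAO pools. Counting one probe per gene, the brightest, 2 of 8 genes with a value on both arrays were above 1.5-fold after PMCAO at 6 h, Trib3 and Chac1, and none below 0.75-fold. Of all probes in that comparison 5.41% were above 1.5-fold and 6.9% below 0.75-fold. At 24 h after PMCAO 1 of 9 genes, Fgf21, was above and 1 of 9, Gdf15, below, against 2.99% and 8.18% of all probes. In sham mice 1 of 7 genes (Fgf21) was above 1.5-fold at 6 h and none below, against 3.98% and 7.48% of all probes, and at 24 h none of 9 in either direction, against 1.75% and 3.87%. Since the members were chosen with this contrast known, nothing is read from these shares.

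Chac1, which encodes an enzyme that degrades glutathione, gave nearly equal ratios on both arrays after PMCAO at 6 h. Its log2 ratio was then 0.79 and 0.81, a mean of 1.74-fold, and at 24 h 0.31 and 0.12. In sham mice it was -0.11 and -0.05 at 6 h and 0.12 and -0.32 at 24 h. Among these 4 comparisons Chac1 was past 1.5-fold in the 6 h PMCAO one alone; the difference between comparisons was not tested.

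Trib3, a pseudokinase that restrains Atf4 and Akt signaling, was read by probes that did not share this pattern. The brighter probe, A_51_P331570, gave 0.77 and 0.90 after PMCAO at 6 h, a mean of 1.78-fold, and -0.46 and -0.22 at 24 h. The dimmer probe, A_52_P600274, gave -0.36 and 0.23 at 6 h, so that the 6 h value rests on 1 probe. At 24 h it gave -0.58 and -0.14, the same sign as the brighter probe.

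Gdf15, the stress hormone of the TGF-β family, had opposite signs at the 2 times. Its log2 ratio after PMCAO was 0.48 and 0.64 at 6 h, a mean of 1.48-fold that falls just short of 1.5-fold. At 24 h it was -0.80 and -0.96, a mean of 0.544-fold, and PACAP38 was below saline on both arrays. In sham mice it stayed between -0.22 and 0.27 in all 4 ratios. After loess the 24 h values were -0.67 and -0.84 and the 6 h values 0.21 and 0.23.

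The remaining members stayed within 1.5-fold or had arrays far apart. Sesn2, a leucine sensor that holds back mTORC1, gave 0.52 and 0.62 (1.48-fold) after PMCAO at 6 h with the brighter probe, A_52_P154710, and -0.08 and 0.12 with A_51_P161354. Ddit3, the pro-apoptotic transcription factor CHOP, ranged from -0.28 to 0.15 over all 8 arrays. Ppp1r15a, the eIF2 phosphatase subunit GADD34, gave -1.03 and -0.11 after PMCAO at 24 h, a mean of 0.675-fold, and -0.60 and 0.79 in sham mice at 24 h. Its 2 arrays in sham mice at 24 h differed by more than its means did between any of the 4 comparisons.

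Atf4 itself, measured only as mRNA here, gave 0.07 and 0.72 after PMCAO at 6 h and -0.67 and -0.03 at 24 h. Its value on array 2 of the 6 h sham comparison was marked as an outlier and left out. Atf5, a related transcription factor, stayed between -0.19 and 0.34 and lacked both 6 h sham arrays for the same reason. Asns, asparagine synthetase, stayed between -0.02 and 0.25 over the 7 arrays that gave a value.

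**Figure D2:**
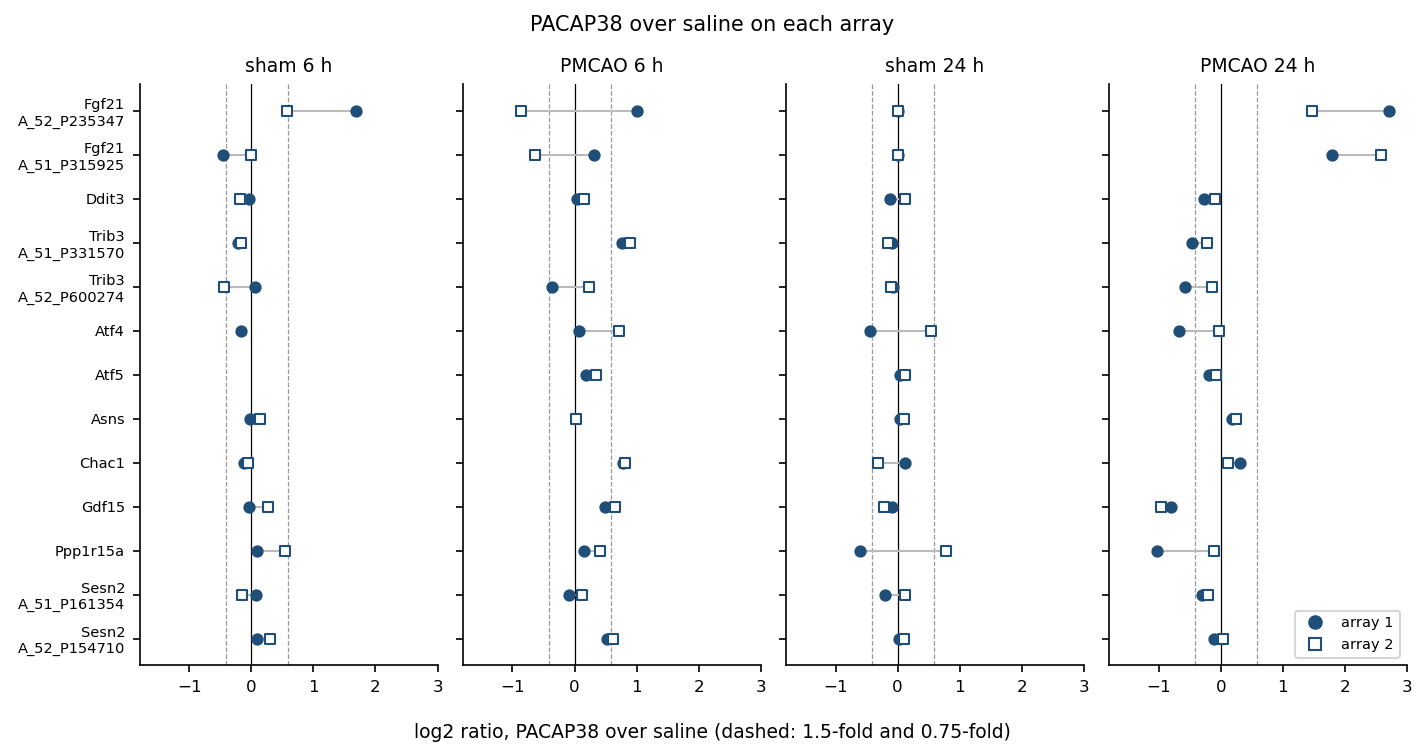
Log2 ratio of PACAP38 over saline for each member probe (rows) in the 4 comparisons (panels); filled circles are array 1, open squares array 2, a gray line joins them, and dashed lines mark 1.5-fold and 0.75-fold. After PMCAO at 24 h both Fgf21 probes lie to the right (1.46 to 2.71) and Gdf15 to the left (-0.80 and -0.96).

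Neutrophil markers moved with the 24 h contrast. The 5 neutrophil genes had a median log2 ratio of -2.91 after PMCAO at 24 h, with 4 of 5 below 0.75-fold, against 8.18% of all probes. Camp, one of these 4 at -0.98, was not well above background on both arrays in any pool. The summed processed signal of the 5 genes on arrays 1 and 2 was 50651 and 44946 in the saline pool and 5966 and 5503 in the PACAP38 pool. The ratios of S100a8 and S100a9 were -2.91 and -3.08 on the log2 scale. Endothelial markers had a median of -0.45 there, with 3 of 4 below 0.75-fold, against 8.18% of all probes. The remaining one, Slco1c1, went the other way at 0.49. Pituitary markers had a median of -1.05 but went both ways. Prl was at -5.10, Pomc at -0.03 and Cga at 1.78, while Gh, at -2.07, was not well above background in any pool. At 6 h after PMCAO the neutrophil median was 0.57. Cerebellar granule cell markers had a median of 0.76 after PMCAO at 6 h, led by Gabra6 at 5.72. Zic1 and Cbln1 were at 0.36 and 0.33, under 1.5-fold, and Cbln3, at 1.17, was not well above background in any pool. The part of any of these cell types in the Gdf15, Trib3 and Chac1 values was not tested.

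The comparison of PMCAO with sham asks what occlusion did to the members with either injection. At 24 h, 4 of 9 genes were above 1.5-fold under saline and the same 4 under PACAP38: Fgf21, Trib3, Gdf15 and Sesn2. Fgf21 is among them on a sham signal below background, and its PMCAO PACAP38 pool at 24 h entered its choice. Its place in the PACAP38 count is therefore no result of its own. Under saline the count was 3 both when probes had to be well above background and on loess and Aquantile channels. None of 9 was below 0.75-fold under either. Of all probes 9.56% were above and 13.3% below under saline, and 6.39% above and 8.19% below under PACAP38. Since the members were chosen with earlier results of these data known, nothing is read from these shares. The saline and PACAP38 pools of one operation lay on the same arrays, so the 2 comparisons share their spots and are not independent.

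Gdf15 had the widest difference among the members detected in every channel. Its level, the log2 processed signal minus the channel's 75th percentile, was -5.07 and -4.97 in sham saline and -5.14 and -5.20 in sham PACAP38 at 24 h. After PMCAO it was -1.44 and -1.31 with saline and -2.24 and -2.29 with PACAP38. PMCAO was therefore 12.5-fold above sham with saline (log2 3.63 and 3.67) and 7.49-fold with PACAP38 (2.90 and 2.91), and all PMCAO channels lay above all sham channels. On loess and Aquantile channels the differences were 1.81 and 1.94 with saline and 1.21 and 1.17 with PACAP38. The 5 neutrophil genes had median differences of 3.31 with saline and 0.72 with PACAP38 at 24 h, and their summed signal in the sham pools was 743 to 1174; their part in the Gdf15 difference was not tested.

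Trib3 was higher after PMCAO at 24 h with both probes. For A_51_P331570 the log2 differences were 1.45 and 1.27 with saline and 1.06 and 1.20 with PACAP38, or 2.56-fold and 2.19-fold. For A_52_P600274 they were 1.14 and 0.94 with saline and 0.62 and 0.90 with PACAP38. Each of these 8 differences was above 0, and the PMCAO and sham levels of either probe did not overlap at 24 h. On loess and Aquantile channels the differences of A_51_P331570 were 0.91 and 0.75, then 0.54 and 0.65, and those of A_52_P600274 were 0.39 and 0.33, then 0.09 and 0.21, the latter all under 1.5-fold.

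Sesn2 differed from sham by less. With A_52_P154710 PMCAO was 1.76-fold above sham with saline (0.83 and 0.80) and 1.62-fold with PACAP38 (0.67 and 0.71). With A_51_P161354 the means were 1.44-fold and 1.23-fold, under the fold limit. Ppp1r15a was 2.87-fold above sham with saline (1.43 and 1.62) and 1.80-fold with PACAP38 (0.99 and 0.71).

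Ddit3, Atf5, Atf4, Chac1 and Asns stayed within 1.5-fold at 24 h. Ddit3 was 1.34-fold and 1.17-fold and Atf5 1.35-fold and 1.16-fold with saline and PACAP38. Atf4 gave 1.23-fold and 0.927-fold, Chac1 0.983-fold and 1.21-fold, and Asns 0.956-fold and 1.05-fold. The Asns level was 4.98 to 5.23 in all 8 channels of that time.

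**Figure D3:**
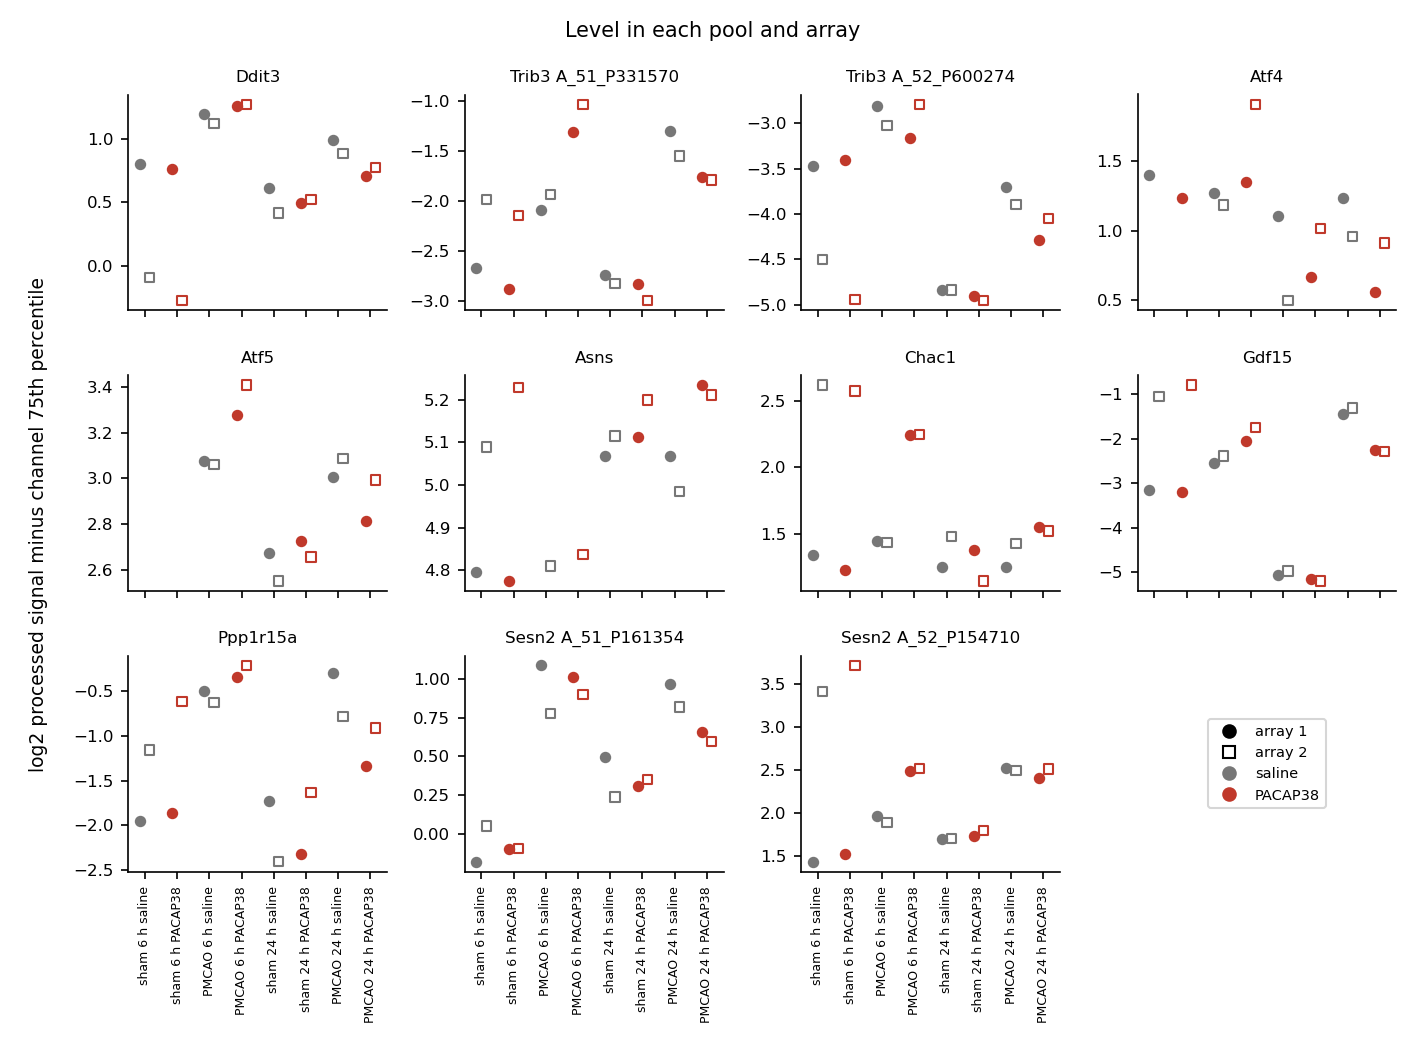
Level of each member probe other than Fgf21 (log2 processed signal minus the channel's 75th percentile) in the 8 pools, in the same order in every panel; filled circles are array 1, open squares array 2, gray saline, red PACAP38. Gdf15 lies near -5 in the 24 h sham pools and between -2.29 and -1.31 after PMCAO, and the squares of the 6 h sham pools stand off from their circles in Gdf15, Chac1 and Sesn2 A_52_P154710.

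At 6 h the array that stood apart decided the outcome. With both arrays averaged, 1 of 8 genes was above 1.5-fold under saline (Ddit3) and 2 of 8 below 0.75-fold (Chac1 and Sesn2), where 18.2% of all probes were above and 33.9% below. Under PACAP38 2 of 8 were above (Ddit3 and Trib3) and 1 below (Fgf21), against 16% and 28.8% of all probes. With array 1 of each operation alone, none of 7 genes was below 0.75-fold under either injection, where 16.9% and 10.2% of all probes were. Above 1.5-fold there were then 2 of 7 under saline (Fgf21 and Gdf15) and 5 of 7 under PACAP38 (Fgf21, Trib3, Chac1, Gdf15 and Sesn2), against 17.2% and 17.9% of all probes.

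The arrays gave opposite signs at 6 h for 3 of the detected members. Gdf15 was 0.61 on array 1 and -1.34 on array 2 under saline, and 1.14 and -0.95 under PACAP38. Sesn2 by A_52_P154710 was 0.53 and -1.52 under saline and 0.97 and -1.20 under PACAP38. Chac1 was 0.11 and -1.18 under saline and 1.02 and -0.33 under PACAP38. For these genes no 6 h direction is given.

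Other members kept one sign at 6 h. Ddit3 was 0.40 and 1.21 under saline and 0.49 and 1.54 under PACAP38. Ppp1r15a was 1.45 and 0.53 under saline and 1.52 and 0.40 under PACAP38. Sesn2 by A_51_P161354 was 1.27 and 0.73 under saline and 1.12 and 1.00 under PACAP38. Trib3 by A_51_P331570 was 0.58 and 0.05 under saline and 1.57 and 1.11 under PACAP38, and by A_52_P600274 0.66 and 1.48 and then 0.24 and 2.15. All of these values were above 0, although array 1 alone put Ddit3 under 1.5-fold. Atf4 had array 1 only, with -0.13 and 0.12, Asns had array 2 only, with -0.28 and -0.39, and Atf5 had neither.

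**Figure D4:**
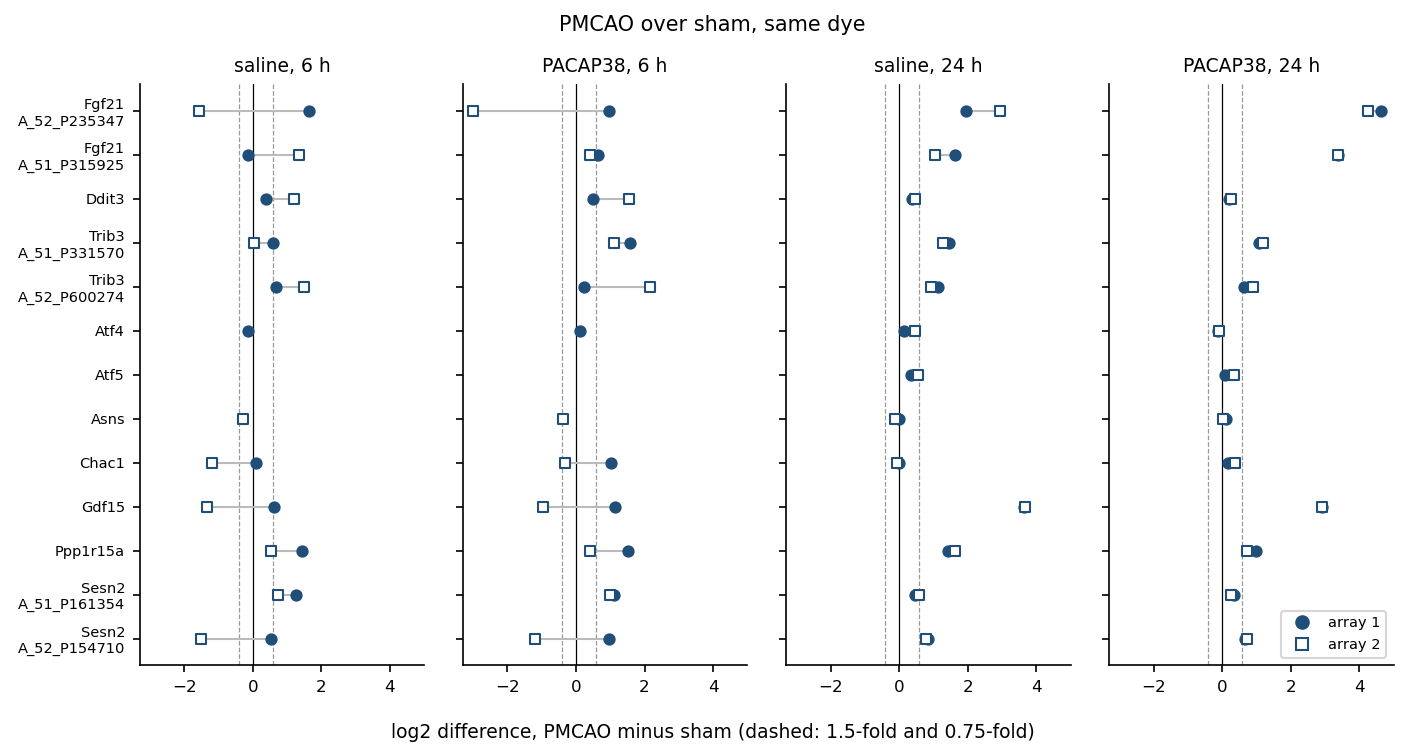
Log2 difference of PMCAO minus sham for each member probe (rows) under each injection and time (panels), by the same dye; filled circles are array 1, open squares array 2, and dashed lines mark 1.5-fold and 0.75-fold. At 24 h the 2 arrays lie close together for Gdf15 (3.63 and 3.67 under saline) and apart for Fgf21 A_52_P235347 (1.96 and 2.95), and at 6 h they fall on opposite sides of 0 for Gdf15, Chac1 and Sesn2 A_52_P154710.

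Over the 4 pool pairs (saline and PACAP38 at 6 and 24 h) limma with Benjamini-Hochberg adjustment called 0 of 40508 probes higher (0%) and 0 lower (0%) in PMCAO at an adjusted p of 0.05; 8921 probes had an unadjusted p under 0.05. Without Fgf21, 9 member probes could be fitted, Atf5 being left out for want of 6 h sham values, and Atf4 and Asns resting on 1 array in their 6 h pairs. The mean difference was above 0 for 8 of these 9 probes, including Atf4 (0.04) and Chac1 (0.01), whose signs turned in some alternatives. The share of all probes above 0 was not counted. The unadjusted limma p was under 0.05 for 4, namely both Trib3 probes, Sesn2 A_51_P161354 and Ddit3. Of all 40508 probes 3695 were higher at that unadjusted limit, and nothing is read from these counts. The dimmer Trib3 probe A_52_P600274 had a log2 difference of 1.02 ± 0.13 (SE), adjusted p = 0.11 by limma, and the brighter A_51_P331570 1.04 ± 0.21, adjusted p = 0.14. On loess and Aquantile channels the value of A_52_P600274 was 0.36. Sesn2 A_51_P161354 had 0.72 ± 0.18 with adjusted p = 0.16, Ddit3 0.62 ± 0.17 with adjusted p = 0.17, and Ppp1r15a 1.08 ± 0.16 with adjusted p = 0.12, all by limma. Gdf15 had 1.57 ± 0.75 with adjusted p = 0.27 (limma), and 2.08 ± 0.56 with adjusted p = 0.23 without the array that stood apart. Its log2 difference ranged from 0.85 (loess and Aquantile channels) to 2.22 (without the saline 6 h pair) over the alternatives, and was 0.88 without the saline 24 h pair. None of the members passed this test. Its 4 pairs are not independent, because the saline and PACAP38 pools of one operation and time lay on the same arrays, so the SE can be too small.

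The outcome of the test changed when the 2 arrays of a pool entered separately. One fit had the replicate number (the dye orientation) as a term and the pool pair as a random block. It called 459 probes higher and 130 lower. Among the members adjusted p by limma was 0.034 for Trib3 A_51_P331570, 0.039 for Trib3 A_52_P600274 and 0.023 for Ppp1r15a. With a block correlation of 0.129 and 6 residual degrees of freedom, this fit counts the technical arrays of a pool nearly as separate replicates. Its p-values therefore do not measure the spread between pools, and no call is taken from them. With the time point, which is also the slide, as a random block, no probe was called, and adjusted p by limma for both Trib3 probes and Ppp1r15a was 0.52. The block correlation was then 0.671. The SE was 0.39 for Trib3 A_51_P331570, 0.21 for Trib3 A_52_P600274 and 0.29 for Ppp1r15a, larger than in the main fit.

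Other genes of the pathway were read from 7 lists of 87 genes, each by its brightest probe; limma called 0 genes of any list in either direction. Among the 16 transcription factors and stress genes linked to Atf4, 7 were above 1.5-fold and 1 below 0.75-fold under saline at 24 h, and 5 above and 2 below under PACAP38. Of all probes 9.56% were above and 13.3% below under saline, and 6.39% and 8.19% under PACAP38. Their median log2 differences were 0.38 and 0.13, where those of all probes were 0.02 and 0.03. Atf3, an early transcription factor of many stress responses, had the highest mean difference, 4.26 ± 0.22 (SE) with adjusted p = 0.10 by limma: 4.34 and 4.78 at 6 h under saline and PACAP38, and 4.35 and 3.57 at 24 h. Stc2, a secreted glycoprotein, averaged 1.63 ± 0.34 and Eif4ebp1, a translation repressor, 0.65 ± 0.16. Trib2, a relative of Trib3, was lowest at -1.07 ± 0.21, followed by Cebpg at -0.58 and Cth at -0.43. With array 1 alone the 6 h pairs of Cebpg were -0.79 and -0.25, and its 24 h pairs were 0.12 and -0.08, so its mean rests on the 6 h arrays.

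The same list was also read for PACAP38 over saline, where its median after PMCAO at 24 h was -0.07. Of its 16 genes 5 were below 0.75-fold after PMCAO at 24 h and none above, against 8.18% and 2.99% of all probes. They were Atf3, Cebpb, Trib1, Nupr1 and Ndrg1, with values from -1.12 to -0.53, names given after their values were seen. The neutrophil genes described above had a median of -2.91 in the same comparison, and their part in these values was not tested.

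The eIF2 step and the charging of tRNAs were read from a list each. For the 14 genes of the eIF2 kinases, eIF2, eIF2B and their phosphatase the 24 h medians were 0.06 under either injection. Under saline 2 were above 1.5-fold and none below 0.75-fold, against 9.56% and 13.3% of all probes. Under PACAP38 1 was above and 1 below, against 6.39% and 8.19%. The 1 below, Eif2b3 at -0.55, was not well above background on both arrays in any pool. Among the named genes Eif2ak4 (GCN2) was highest over the 4 pairs at 0.32 ± 0.19 and the phosphatase subunit Ppp1cb lowest at -0.48 ± 0.23. Both rest on the array that stood apart: with array 1 alone the 6 h pairs were -0.04 and 0.23 for Eif2ak4 and -0.22 and -0.04 for Ppp1cb. The 12 aminoacyl-tRNA synthetases had 24 h medians of 0.08 and 0.13 with none past either fold, beside those same shares of all probes. Sars was highest at 0.48 ± 0.11, between 0.42 and 0.51 in the 4 pairs.

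The 9 amino acid transporters had 24 h medians of 0.30 and 0.17. Slc1a5 (the glutamine transporter ASCT2) alone was above 1.5-fold, at 1.16 under saline and 1.00 under PACAP38, and none was below 0.75-fold. Of all probes 9.56% were above and 13.3% below under saline, and 6.39% and 8.19% under PACAP38. Slc3a2, the heavy chain shared by several transporters, averaged 0.66 ± 0.15 over the 4 pairs, the highest of the list, with 0.54 and 0.33 at 24 h and a 6 h value from array 2 only. The 9 genes of serine, proline and one-carbon synthesis had 24 h medians of 0.01 and 0.10. Shmt2 was highest over the 4 pairs at 0.36 ± 0.15, with 0.63 and 0.55 at 24 h. Psph was lowest at -0.65 ± 0.29, but its 6 h pairs were 0.05 and 0.09 with array 1 alone.

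The IRE1 and ATF6 branches of the unfolded protein response, a separate arm of ER stress, had medians close to those of all probes at 24 h. Of 16 genes none was above 1.5-fold under either injection, none was below 0.75-fold under saline and 1 was below under PACAP38. Of all probes 9.56% were above and 13.3% below under saline, and 6.39% and 8.19% under PACAP38. The medians of the 16 genes were -0.08 and -0.11. Hspa5, the chaperone BiP, was at -0.08 and -0.13, and Xbp1, the substrate of IRE1, at 0.03 and -0.03, both singled out after their values were seen. Over the 4 pairs Dnajc3, a chaperone that inhibits eIF2 kinases, was highest at 1.16 ± 0.37, but with array 1 alone its 6 h pairs were 0.40 and 0.92. Of the 10 receptors and relatives of Fgf21 and Gdf15 on the array, 3 were above and 1 below under saline and none above and 1 below under PACAP38, beside the same shares of all probes (9.56% and 13.3%, then 6.39% and 8.19%). Fgf15, one of the 3 above under saline at 0.65, was not well above background on both arrays in any pool.

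**Figure D5:**
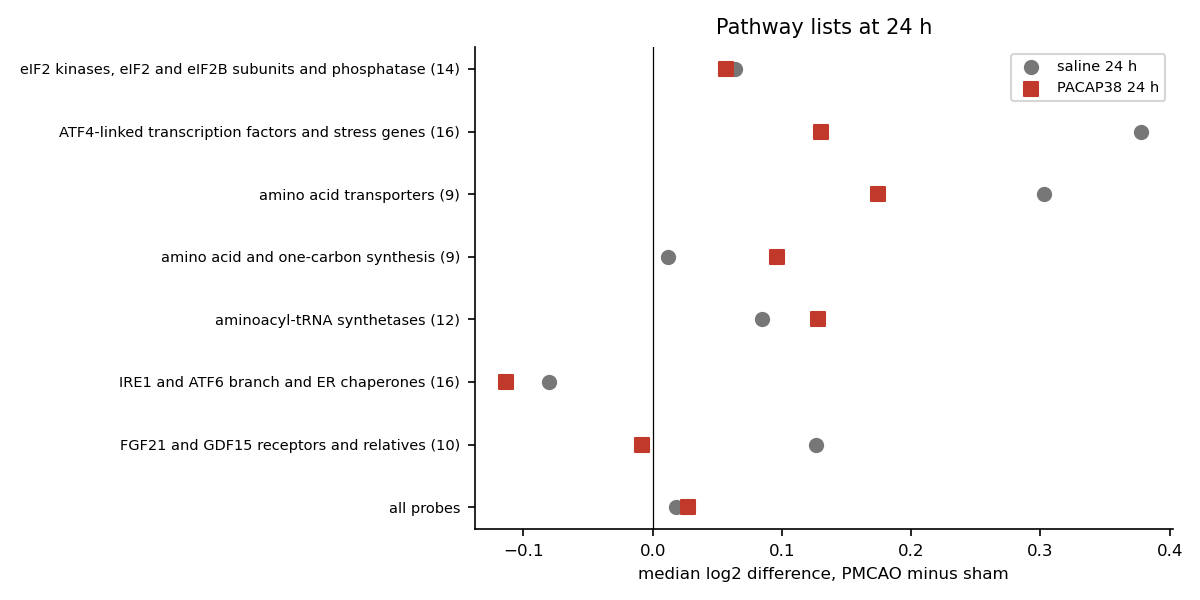
Median log2 difference of PMCAO minus sham at 24 h for each of 7 pathway lists (number of genes on the array in brackets) and for all probes; gray circles are saline and red squares PACAP38. The list of Atf4-linked genes lies farthest right under saline (0.38), the amino acid transporters under PACAP38 (0.17, against 0.13 for the Atf4-linked genes), and the IRE1 and ATF6 list lies left of 0 (-0.08 and -0.11).

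The genes whose levels followed Fgf21 most closely over the 8 pools were sought among 28981 probes, each time point being centered on its mean. The highest Pearson correlations with A_52_P235347 were those of ENSMUST00000046721 (0.988), 5330439C02Rik (0.981), AA960436 (0.980), 2010204N08Rik (0.976) and Dgke (0.962), a diacylglycerol kinase. Without array 2 of the 6 h sham comparison these were 0.700, 0.981, 0.674, 0.865 and 0.933. The second Fgf21 probe reached 0.905 and, of the members, Gdf15 0.809. The probes of one gene differed: Sesn2 was at 0.795 by A_52_P154710 and 0.141 by A_51_P161354, and Trib3 at 0.544 by A_51_P331570 and 0.358 by A_52_P600274. Ddit3 was at 0.108 and Atf4 at -0.11. Several of these moved without array 2 of the 6 h sham comparison. Ddit3 was then at 0.558, Atf4 at -0.046, Gdf15 at 0.795 and the second Fgf21 probe at 0.883. Sesn2 was at 0.719 by A_52_P154710 and 0.453 by A_51_P161354. The order of the Trib3 probes turned, with 0.647 by A_51_P331570 and 0.747 by A_52_P600274. The 8 pools lay in pairs on shared arrays and in fours on shared slides, so these figures rank probes and carry no test.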

How the data were processed

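Agilent two-color 4x44K mouse arrays were used, 8 in all. The authors scanned them and extracted them with Agilent Feature Extraction, version 9.5.1.1 for the 6 h arrays and 9.5.3.1 for the 24 h arrays. Time and software version therefore cannot be told apart either. Per the file headers the deposited files hold processed signal intensity per channel, the log10 ratio of Cy5 over Cy3, and flags. The value table deposited by the authors gives the ratio of Cy5 over Cy3 on a linear scale on 4 arrays and, on the 4 with PACAP38 in Cy3, a score that is the same ratio with a minus sign before it; its size was within 0.01 of the processed signals' ratio for 100% of matched probes. Second copies of 3 files held identical values and were not used.

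Log ratios were turned to log2 of PACAP38 over saline and averaged over the dye-swapped arrays; spots marked as outliers were left out, and spots of one probe averaged. Levels are log2 processed intensity minus the channel's 75th percentile, and PMCAO was set against sham within a dye and time. A probe was past the fold above 1.5-fold or below 0.75-fold, the limits of the study. limma 3.58.1 (R 4.3.3) was fitted to the 4 PMCAO-minus-sham differences (3 residual degrees of freedom) and tested on simulated data. The number of arrays limits the precision.

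Arrays of one replicate number share their dye orientation: deviations of the ratios correlated at 0.233 to 0.648 between comparisons. The fit with that number as a term and the pool pair as a block is therefore given beside the main one. Named genes were the members, for each pathway list at most the 3 highest and 3 lowest mean differences among detected probes, and the 5 probes most like Fgf21. The members and lists were chosen with earlier results of these data known. Alternatives were other background corrections and scalings, the deposited table, single arrays or pool pairs left out, other fold limits and probe rules, and other limma designs.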

Additional observations from a re-analysis of the deposited data

Results flagged for a closer look

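Members are listed here if, by the brightest probe, both arrays of one comparison lay on one side of 0 and both of another on the other. The rule asks for signs only, so small differences meet it as well. The share of all probes that meet it was not counted, so nothing is read from how many members are listed. The differences between comparisons were not tested, since each rests on 1 pool a group. For PACAP38 over saline after PMCAO, the 6 h mean minus the 24 h mean was 1.44 on the log2 scale for Gdf15 (0.56 against -0.88), 1.17 for Trib3 (0.83 against -0.34), 0.85 for Ppp1r15a (0.28 against -0.57), 0.74 for Atf4 (0.39 against -0.35), 0.40 for Atf5 (0.27 against -0.13) and 0.28 for Ddit3 (0.10 against -0.18). Time and slide cannot be told apart in these. At 6 h, sham minus PMCAO was -1.02 for Trib3 (-0.19 against 0.83), -0.88 for Chac1 (-0.08 against 0.80) and -0.21 for Ddit3 (-0.11 against 0.10), and the sham side includes the array that stood apart. At 24 h it was 0.21 for Atf5 (0.08 against -0.13).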

How the results depend on the processing

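With normexp and loess, the Fgf21 ratio of PACAP38 over saline after PMCAO at 24 h was 0.65 for A_52_P235347 and 0.53 for A_51_P315925 on the log2 scale, in sham mice at 24 h -0.18 and 0.052, and in sham mice at 6 h 0.097 for A_52_P235347; the deposited table gave 0.083 and 0.14 in sham mice at 24 h. Single arrays ranged from 1.46 to 2.71 for A_52_P235347 and from 1.79 to 2.57 for A_51_P315925 after PMCAO at 24 h. The count of members past the fold with PACAP38 fell to 0 in sham mice at 6 h and to 1 after PMCAO at 6 h both with loess and with the mean of all probes of a gene. On single arrays it ranged from 0 to 1 in sham mice at 6 h, 3 to 6 after PMCAO at 6 h, 0 to 1 in sham mice at 24 h and 2 to 4 after PMCAO at 24 h. For PMCAO over sham under saline at 6 h, 5 members passed with median centring and 1 with 1.5-fold either way; single arrays gave 2 to 5 under saline and 5 to 5 under PACAP38 at 6 h, and the 24 h counts moved by no more than 1.5 times under any alternative run.

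limma called 0 probes in each direction in every alternative run apart from the additive fit and the fit with the replicate number. The additive fit over the 8 pools gave 294 higher and 132 lower (Trib3 A_52_P600274 adjusted p = 0.039 by limma). The fit with the replicate number as a term and the pool pair as a block gave 459 higher and 130 lower. It is set beside the main result and, of the members it fitted, changed the calls of Trib3 and Ppp1r15a alone. Leaving out any pool pair, or the array that stood apart (chosen after seeing the data), gave 0. Signs near 0 turned for Atf4 (-0.072 median-centered, -0.059 with outlier spots kept, -0.040 without the saline 24 h pair and up to 0.10 with another pair left out), Asns (0.34 with Aquantile, 0.15 with outlier spots kept) and Chac1 (-0.10 median-centered, -0.096 and -0.074 without the PACAP38 6 h or 24 h pair). Median centring moved the mean differences by about -0.11 on the log2 scale. The cause was not tested. Signal near background limits Fgf21, and 1 pool a group limits every comparison.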
